A study of Homo sapiens and Homo sapiens
Mus musculus and Mus musculus with 9 samples.

Results

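Interferon-stimulated genes are the genes that cells switch on when interferon binds its receptor. The 43 genes described here were taken by symbol from the deposited table, and all 43 were found among its 41713 genes, 5 of them transcription factors (STAT2, IRF1, IRF3, IRF7 and IRF9), 6 sensors of foreign or misplaced nucleic acid (STING1, CGAS, IFIH1, DDX58, DDX60 and DHX58) and 32 effectors. They were measured by stranded mRNA sequencing in C4-2B, a human prostate cancer cell line with a wild-type genotype, grown alone (3 libraries) or mixed with MC3T3-E1, a mouse pre-osteoblast line, at 1 C4-2B cell to 30 MC3T3-E1 cells (3 libraries). Both cultures were kept in alpha-MEM with fetal bovine serum, and neither received interferon according to the labels. The comparison asks which human transcripts differ in C4-2B cells that grow among osteoblasts, a culture the study uses as a model of tumour dormancy in bone. The 3 libraries of MC3T3-E1 alone were not analysed here.

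As background, type I interferon binds a receptor whose kinases, JAK1 and TYK2, phosphorylate STAT proteins. STAT2 then enters the nucleus with IRF9 and binds the interferon-stimulated response element (ISRE) in front of its target genes, while type II interferon acts through another DNA element, GAS. Cytosolic sensors can start the same programme from inside the cell by inducing interferon through IRF3 and IRF7, and several sensors and transcription factors are themselves induced by interferon, so the programme feeds forward. In tumour cells, part of the programme can be on without added interferon.

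A DNA element known from promoters of such genes is shown first. In the RefSeq promoters of GRCh38.p14 (250 bases before to 50 after each gene's start), 33 of the 43 genes had an entry. The core of the ISRE, searched as GAAA, any 2 bases and GAAA, occurred on either strand in 21 of these 33 (63.6%), against 4.38% of the 27305 genes with a promoter in the same table. A longer ISRE, searched as AGTTTC, any 2 bases and TTTC, whose matches in these genes all overlap a match of the core, occurred on either strand in 15 (45.5%, against 0.322% of all genes), and the GAS letters TTCNNNGAA, which read the same on both strands, occurred in 11 (33.3%, against 9.38%). ADAR, DDX58, HERC6, STAT2, TRIM25, UBE2L6 and XAF1 held none of these motifs in this window. A match is a description of the sequence and not a measured binding site. The stretches below are from genes whose reads are given further on, written 5′ to 3′ in the direction of the gene, with the core in capitals (in IFIT1 and IFI44 the match is on the opposite strand and reads TTTC, any 2 bases, TTTC). They lie at chr1:1013380-1013409 (plus strand, ISG15), chr10:89392497-89392526 (plus, IFIT1), chr1:78649761-78649790 (plus, IFI44), chr7:93118096-93118125 (minus, SAMD9), chr4:168318821-168318850 (minus, DDX60) and chr2:162318686-162318715 (minus, IFIH1).
ISG15: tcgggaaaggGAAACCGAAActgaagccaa
IFIT1: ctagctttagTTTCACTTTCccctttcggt
IFI44: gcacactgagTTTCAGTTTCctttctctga
SAMD9: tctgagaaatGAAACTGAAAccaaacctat
DDX60: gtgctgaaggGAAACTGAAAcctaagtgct
IFIH1: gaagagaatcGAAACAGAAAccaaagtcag

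The deposited table gives, per gene and pipeline, the authors' mean over the 6 libraries of reads divided by the size factor of each library. Whole reads per library were solved from these means. For Xenome, 1 of 3 pipelines that separated human from mouse reads, the size factors came to 5.93, 5.31 and 4.86 for the C4-2B alone libraries, named A, B and C here from the deepest to the shallowest, and to 0.427, 0.145 and 0.109 for the co-culture libraries A, B and C. The co-culture libraries were thus 36.7 times shallower in human reads (ratio of the medians), and 23.7 reads over the C4-2B alone libraries leave 1 read expected over the co-culture libraries at an equal level. Reads were solved for 33 of the 43 genes (18 from the Xenome mean alone and 15 from the Xenome and XenofilteR means together). The other 10 (STAT2, IRF3, IFITM3, OAS3, EIF2AK2, ADAR, BST2, USP18, PARP9 and TRIM25), which hold 89.1% of the members' summed Xenome means, are given by their means alone, with no value per group. Levels below are normalised reads, that is reads divided by the size factor, and errors are SD over the 3 libraries of a group.

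Of the markers of C4-2B, KLK3, FOLH1, TMPRSS2, HOXB13, EPCAM, KRT8 and KRT18 had Xenome means from 4603 (TMPRSS2) to 51040 (KLK3). The 5 leukocyte markers summed to 12.49 to 12.98 normalised reads in the C4-2B alone libraries and 6.91 to 32.8 in the co-culture libraries, and CD3E had at most 3 reads in any library. Among 10 osteoblast markers, 8 had solved reads, and their summed level was 26.5 to 31.1 normalised reads in the C4-2B alone libraries and 98.5 to 297 in the co-culture libraries. This sum leaves out COL1A1 and RUNX2, which had no solved reads and higher Xenome means over the 6 libraries, 3384 and 411. Of the 6 that could be fitted, 3 were called up and 0 down, beside 4.22% of all tested genes called, of which 732 of 778 were up. With at least 10 co-culture reads 2 were fitted and both were called. COL1A2, a collagen gene of osteoblasts, had 1, 0 and 0 reads in C4-2B alone and 12, 19 and 12 in the co-culture (limma voom, adjusted p = 5.3e-05), SPARC rose by a log2 difference of 2.48 (limma voom, adjusted p = 0.00112), and SPP1, the third call, had 1 co-culture read. BGLAP and IBSP also had 1 co-culture read each, with log2 differences of -0.86 and -0.03 that did not pass the test. ALPL and SP7 had 0, after 3 and 32 reads over C4-2B alone, so a difference was not detectable at this depth. POSTN, which was not fitted, had 0 reads in each C4-2B alone library and 1, 2 and 1 in the co-culture. These levels depend on the pipeline, since XenofilteR gave a mean of 263.6 for COL1A2 and 142 for SPARC where Xenome gave 44.96 and 71.96. The part of osteoblast reads in the values of the interferon-stimulated genes was not tested. The median member shared 0.0479% of its distinct 31-base sequences with mouse transcripts and the highest, IFIH1, 0.905%, against a median of 0.607% over 19702 protein-coding genes.

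None of the 33 interferon-stimulated genes with solved reads was called different between the co-culture and C4-2B alone, and the 10 without solved reads could not be tested. A call was a log2 difference of at least 1 in size with an adjusted p under 0.05, from limma voom with Benjamini-Hochberg adjustment over all tested genes. In the fit of the 18445 genes solved from the Xenome mean alone, 4.22% of genes were called and 0 of 18 members, and in the wider fit of 21529 genes, which adds those solved from both means, 3.86% of genes and 0 of 33 members. At an unadjusted p under 0.05, 2 of 18 and 6 of 33 members stood apart, beside 24.7% and 24.4% of all genes. Genes with few co-culture reads lean upward in these fits, which add 0.5 reads in every library, and the median log2 difference over all tested genes was 0.44 in the first fit and 0.28 in the wider one. The part of the added reads in this lean was not tested. With at least 10 reads over the co-culture libraries, the medians over all genes were 0.01 and -0.05, 3.44% of 5225 and 2.43% of 8308 genes were called, and 0 of 11 and 0 of 26 members. The members' median in the wider fit was -0.22 under this filter, with 19 of 26 below 0, beside 54% of all genes. An unadjusted p under 0.05 (limma voom) was found here for 2 of 11 and 5 of 26 members, beside 14.9% of all genes in either fit.

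Differences are given below for the 26 members with at least 10 co-culture reads, from the Xenome fit where it holds the gene and otherwise from the wider fit. They ranged from -1.54 (SAMD9) to 0.76 (STING1). This choice rests on the co-culture reads themselves, so it drops members that are low there. IFI44L and IFI27, with 12.7 and 13.1 co-culture reads expected at the C4-2B alone level, had 4 and 8 and are not among the 26, while IFIT3, with 10.9 expected, had 11 and is. In 14 of the 26, the 95% interval of the log2 difference lay between -1 and 1. In 23 it lay below 1, the exceptions being STING1, IFIT3 and IFITM1, so for these 23 genes a doubling in the co-culture was outside the interval. In 17 it lay above -1. Groups did not overlap for 7 of the 26 members, each time with the co-culture lower (IRF1, DDX58, DHX58, IFI44, IFIT2, PARP14 and SAMD9). Among all 8308 genes with at least 10 co-culture reads, the groups did not overlap for 26.6%, and the co-culture was the lower group without overlap for 16.8%. With at least 10 co-culture reads expected in place of found, a choice made after seeing the data that adds IFI44L and IFI27, the co-culture was lower without overlap for 8 of 28 members and for 21.6% of 8165 genes.

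**Figure D1:**
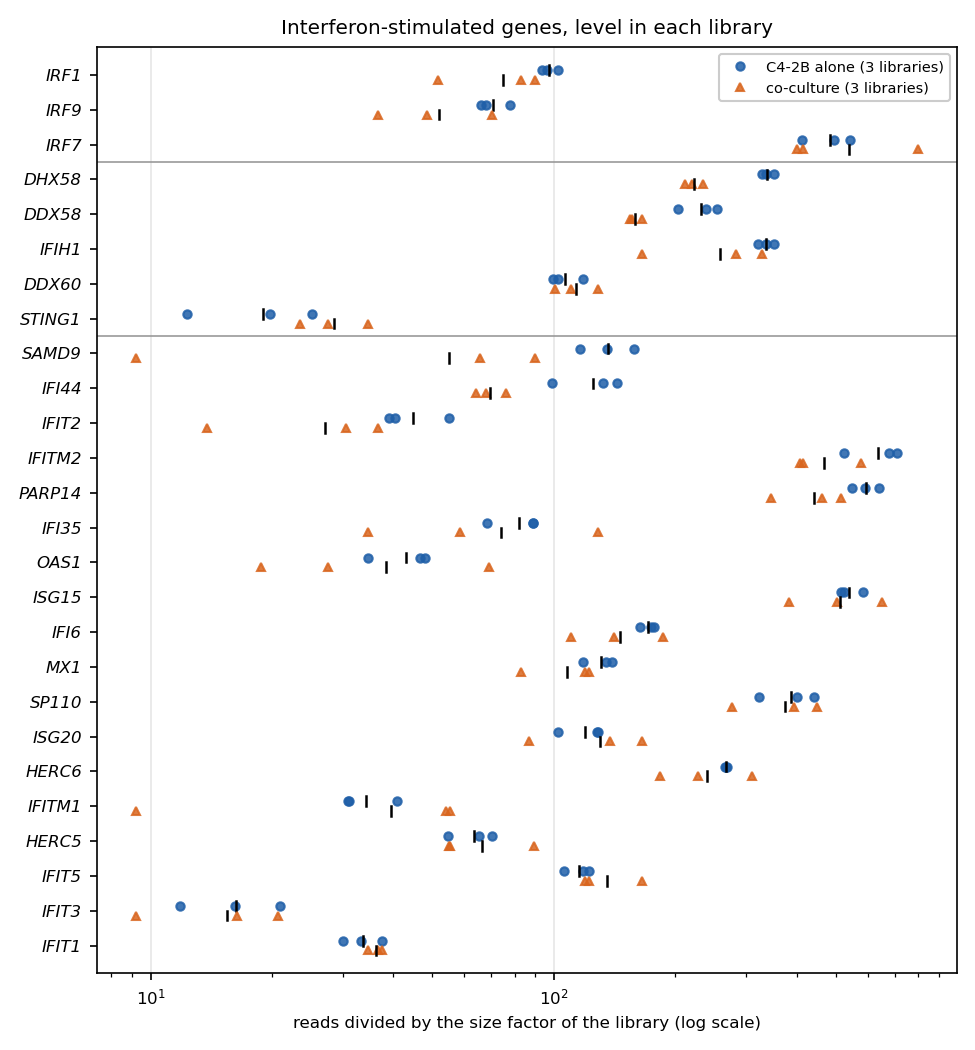
Level of each of the 26 interferon-stimulated genes with at least 10 co-culture reads, in reads divided by the size factor of the library (x axis, log scale). Circles are the 3 C4-2B alone libraries, triangles the 3 co-culture libraries and black ticks the group means, with transcription factors, sensors and effectors separated by lines. The co-culture points are spread more widely than the C4-2B alone points for most genes, and DHX58, DDX58 and IFI44 show 3 close co-culture points below all C4-2B alone points.

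None of the 3 transcription factors with solved reads passed the test. IRF7, the factor that amplifies interferon production, had 2439, 2874 and 2413 reads in C4-2B alone A, B and C and 177, 58 and 87 in co-culture A, B and C. Its level was 483 ± 65.7 for C4-2B alone and 538 ± 226 for the co-culture (n = 3 each). The voom estimate, which weights libraries by their precision, was a log2 difference of -0.04 (SE 0.21, limma voom, adjusted p = 0.936), of the other sign than the plain means and than limma trend (0.09), so the direction for IRF7 was not settled. Estimate and plain means also differed in sign for ISG20 (means of 119.6 for C4-2B alone and 130.1 for the co-culture) and IFIT3 (16.3 and 15.4). The groups overlapped, and co-culture C, at 799 normalised reads, was the highest of all 6 libraries. IRF9, the partner that gives the STAT complex its DNA specificity, had 402, 351 and 379 reads in C4-2B alone and 30, 7 and 4 in the co-culture, or 70.6 ± 6.42 and 51.8 ± 17.1 normalised reads. The groups overlapped through co-culture A, and the log2 difference was -0.32 (SE 0.35, limma voom, adjusted p = 0.592). IRF1, a factor induced by type II interferon that binds similar elements, had 569, 498 and 499 reads in C4-2B alone and 22, 13 and 9 in the co-culture. Its levels of 93.7 to 102.6 in C4-2B alone lay above those of 51.6 to 89.8 in the co-culture, but the log2 difference of -0.51 (SE 0.33) did not pass the test (limma voom, adjusted p = 0.347), and without co-culture A it was -0.11. STAT2, with a Xenome mean of 1936, and IRF3, the factor that the sensors activate, at 2054, were given by their means alone.

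Of the sensors, the RNA helicases were measured best. DHX58 (LGP2), which tunes the other RNA sensors, had 1945, 1786 and 1704 reads in C4-2B alone and 90, 34 and 24 in the co-culture, or 338 ± 11.3 and 222 ± 12 normalised reads. The co-culture libraries lay between 211 and 235, all below the C4-2B alone libraries, and the log2 difference of -0.61 (SE 0.21, 95% interval -1.06 to -0.17) missed the threshold (limma voom, adjusted p = 0.111). The adjusted p of DHX58 ranged from 0.00573 to 0.229 over the alternatives tried, under 0.05 without a filter on low counts (0.0498) and with limma trend, a fit without precision weights, at each of 3 pseudocounts, while its difference stayed between -0.65 and -0.52 and never reached the fold minimum. In the wider fit, 10495 of 29576 genes had an adjusted p under 0.05 without that filter (limma voom). With limma trend, 2377 to 4215 of 21529 genes did. DDX58 (RIG-I), the sensor of RNA with a triphosphate end, had 1206, 1266 and 1236 reads in C4-2B alone and 66, 24 and 17 in the co-culture. Its co-culture levels of 155 to 166 were again below the C4-2B alone levels of 203 to 254, with a log2 difference of -0.53 (SE 0.26, limma voom, adjusted p = 0.226, and 0.0295 to 0.431 over the alternatives, under 0.05 with limma trend at pseudocounts 0.25 and 1). Of DDX58's exon bases, 43.2% lie in another gene model on the same strand in GENCODE release 44, so its reads could be split in counting. IFIH1 (MDA5), the sensor of long double-stranded RNA, had 1993, 1704 and 1704 reads in C4-2B alone and 140, 41 and 18 in the co-culture. Here co-culture A, at 328 normalised reads, stood among the C4-2B alone libraries, while co-culture C, at 165, was the lowest, and the log2 difference was -0.27 (SE 0.23, limma voom, adjusted p = 0.494), -0.57 without co-culture A and -0.09 without co-culture C. DDX60, a helicase that assists RNA sensing, had 590, 545 and 575 reads in C4-2B alone and 43, 16 and 14 in the co-culture, and its groups overlapped with a log2 difference of 0.07 (SE 0.28, limma voom, adjusted p = 0.911).

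The sensors of cytosolic DNA were at low levels. CGAS, the enzyme that makes the second messenger cGAMP from DNA, had 15, 26 and 8 reads in C4-2B alone and 0 in each co-culture library. At the C4-2B alone level 2.07 co-culture reads were expected, and 3 reads, the floor taken for a count of 0, correspond to 4.41 normalised reads over the co-culture group against 3.02 ± 1.68 in C4-2B alone, so a decrease was not detectable at this depth. The ratio of the co-culture to C4-2B alone over pooled reads had an exact 95% interval of 0 to 1.85, counting error only. STING1, the adaptor that cGAMP activates, had 73, 105 and 122 reads in C4-2B alone and 10, 5 and 3 in the co-culture. Its level was 19.1 ± 6.42 and 28.5 ± 5.61 normalised reads, and its log2 difference of 0.76 (SE 0.46, 95% interval -0.21 to 1.73) was the highest of the 26 and did not pass the test (limma voom, adjusted p = 0.307).

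**Figure D2:**
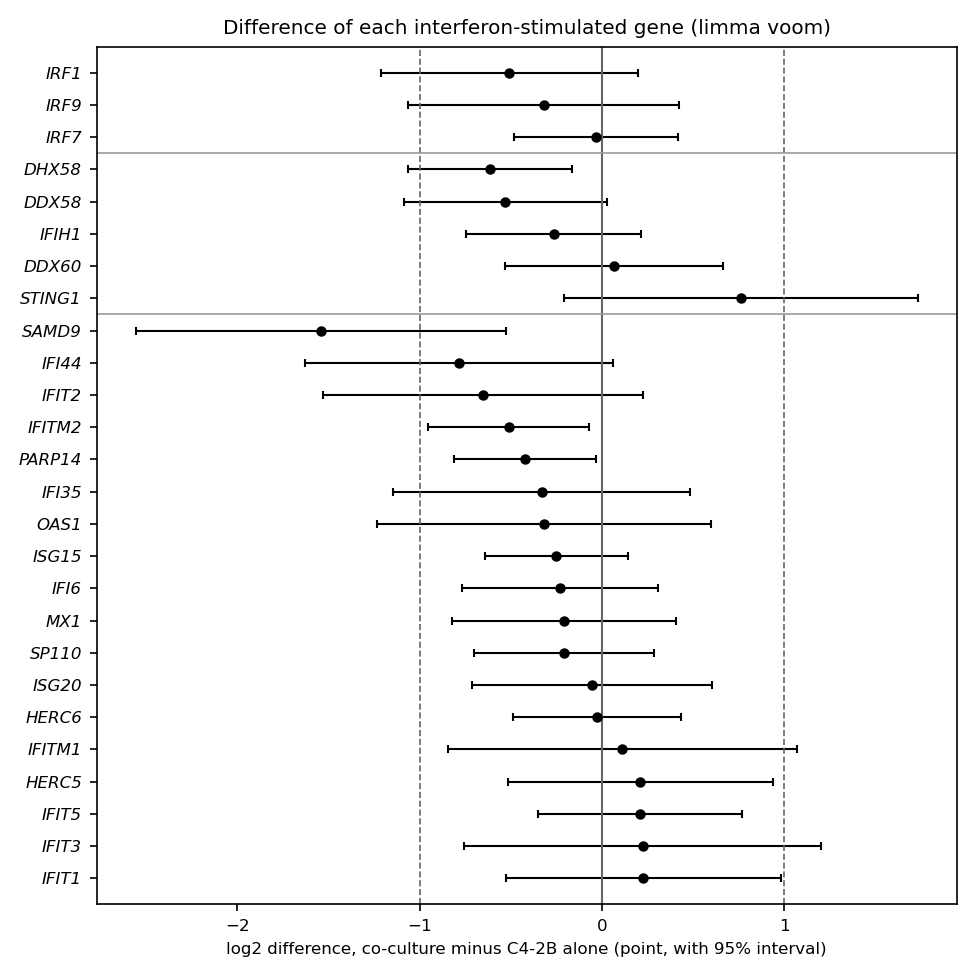
Log2 difference of the co-culture minus C4-2B alone for the 26 genes with at least 10 co-culture reads (x axis), with transcription factors, sensors and effectors separated by lines. Points are limma voom estimates and bars their 95% intervals, and the dashed lines mark -1 and 1. Most bars cross 0 and 14 lie between the dashed lines, with SAMD9 at -1.54 and STING1 at 0.76 as the outermost points.

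Effectors made up most of the reads. ISG15, a ubiquitin-like protein that is joined to other proteins, had 3097, 3100 and 2503 reads in C4-2B alone and 163, 73 and 71 in the co-culture. Its level was 540 ± 37.5 and 513 ± 135 normalised reads, and the log2 difference of -0.25 (SE 0.18, limma voom, adjusted p = 0.423) became 0.078 without co-culture A. Per kilobase of exon it was the most abundant member with solved reads in both groups, at 623 normalised reads per kilobase for C4-2B alone and 591 for the co-culture. The enzymes that attach ISG15 or resemble its ligase did not pass the test either. HERC5, the ISG15 ligase, had 386, 291 and 342 reads in C4-2B alone and 38, 8 and 6 in the co-culture. Its log2 difference was 0.21 (SE 0.34, limma voom, adjusted p = 0.73), and -0.09 without co-culture A. HERC6, its neighbour on chromosome 4 (88378739 to 88443111 in GRCh38, with HERC5 at 88457119 to 88506163), had 1581, 1409 and 1306 reads in C4-2B alone and 132, 33 and 20 in the co-culture, a log2 difference of -0.03 (SE 0.22, limma voom, adjusted p = 0.952) that was -0.34 without co-culture A. UBE2L6, the enzyme that hands ISG15 to the ligase, had 187 reads over C4-2B alone and 9 over the co-culture, where 7.9 were expected at an equal level. USP18, which removes ISG15 and blocks the receptor, had no solved reads, and its means were 545 with Xenome and 879 with Kallisto.

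MX1, a GTPase that traps viral nucleocapsids, had 698, 740 and 655 reads in C4-2B alone and 52, 12 and 13 in the co-culture. Co-culture A and C lay within or close to the C4-2B alone range and co-culture B, at 82.9 normalised reads, below it, and the log2 difference was -0.21 (SE 0.29, limma voom, adjusted p = 0.695). Of the IFIT genes, which bind foreign RNA and lie side by side on chromosome 10 between 89283694 and 89420997 of GRCh38, IFIT5 had 628, 651 and 573 reads in C4-2B alone and 52, 24 and 13 in the co-culture. Its groups overlapped, with a log2 difference of 0.21 (SE 0.26, limma voom, adjusted p = 0.66). IFIT1 had 537 reads over C4-2B alone and 25 over the co-culture (33.6 ± 3.71 and 36.3 ± 1.54 normalised reads) and a log2 difference of 0.23 (SE 0.36). IFIT2 had 713 and 19 reads and a log2 difference of -0.65 (SE 0.41), and IFIT3 had 258 and 11 reads and a log2 difference of 0.22 (SE 0.46). The neighbours in this cluster thus had differences of either sign, and none passed the test (limma voom, adjusted p of 0.331 for IFIT2, the smallest of the 4 genes).

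The IFITM genes code for membrane proteins that hinder the entry of viruses. IFITM2 had 3108, 3593 and 3444 reads in C4-2B alone and 177, 59 and 63 in the co-culture, or 636 ± 98.2 and 467 ± 96.7 normalised reads. Its groups overlapped through C4-2B alone A and co-culture C, and the log2 difference was -0.51 (SE 0.21, 95% interval -0.95 to -0.07, limma voom, adjusted p = 0.159). IFITM1, with 557 reads over C4-2B alone and 32 over the co-culture, had a log2 difference of 0.11 (SE 0.45), and co-culture C held 1 of the 32 reads. The difference was 0.73 without co-culture C, -0.23 without co-culture A and -0.17 to -0.09 with limma trend, so its sign was not settled, and none of these passed the test. IFITM1, IFITM2 and IFITM3 are close copies of each other, so reads shared by them may have been split in counting, and IFITM3 was given by its Xenome mean of 1708.

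PARP14, an ADP-ribosyltransferase, had 3253, 3142 and 3112 reads in C4-2B alone and 197, 50 and 56 in the co-culture. Its levels of 549 to 640 in C4-2B alone did not overlap those of 345 to 514 in the co-culture, and the log2 difference of -0.42 (SE 0.18, 95% interval -0.81 to -0.03) did not pass the test (limma voom, adjusted p = 0.175). SP110, a nuclear body protein, had 1912, 2124 and 2148 reads in C4-2B alone and 118, 57 and 49 in the co-culture. Its groups overlapped with a log2 difference of -0.21 (SE 0.23, limma voom, adjusted p = 0.615), which was 0.13 without co-culture A. The small mitochondrial protein IFI6 had 1048, 924 and 794 reads in C4-2B alone and 60, 27 and 12 in the co-culture. Its co-culture levels of 110 to 187 straddled the C4-2B alone levels of 163 to 177, and the log2 difference was -0.23 (SE 0.25, limma voom, adjusted p = 0.606). ISG20, an exonuclease that degrades RNA, had 608, 680 and 624 reads in C4-2B alone and 37, 24 and 15 in the co-culture, a log2 difference of -0.06 (SE 0.31, limma voom, adjusted p = 0.93) that was 0.41 without co-culture A.

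SAMD9, a cytosolic restriction factor of poxviruses, had the lowest difference. It had 805, 616 and 766 reads in C4-2B alone and 28, 13 and 1 in the co-culture, or 136 ± 20.8 and 54.9 ± 41.4 normalised reads. All co-culture libraries were below all C4-2B alone libraries, and co-culture C, at 9.18 normalised reads, was far below co-culture A and B at 65.6 and 89.8. The log2 difference was -1.54 (SE 0.48, 95% interval -2.56 to -0.53) and missed the threshold (limma voom, adjusted p = 0.0786). Without co-culture C it was -0.86 (limma voom, adjusted p = 0.281). With no filter on low counts, which adds genes with few reads to the fit, SAMD9 was called (-1.51, limma voom, adjusted p = 0.0118), while its adjusted p ranged from 0.0118 to 0.392 over the alternatives tried. Without the filter on low counts, 10441 of 26492 genes were called in the Xenome fit, against 778 of 18445 with it.

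IFI44, a cytoplasmic protein that dampens virus growth, had 586, 704 and 695 reads in C4-2B alone and 29, 11 and 7 in the co-culture. The co-culture levels of 64.3 to 76.0 lay below the C4-2B alone levels of 98.9 to 143, and the log2 difference of -0.78 (SE 0.40, 95% interval -1.63 to 0.06) did not pass the test (limma voom, adjusted p = 0.236). With limma trend the adjusted p of IFI44 was 0.0249 to 0.0391 at the 3 pseudocounts, with the difference at -0.83 to -0.80, and over all alternatives it ranged from 0.0249 to 0.453. At these pseudocounts, 2377 to 4215 of 21529 genes had an adjusted p under 0.05 with limma trend in the wider fit. IFI44L, its neighbour on chromosome 1 (78619922 to 78646145 in GRCh38, with IFI44 at 78649796 to 78664078), had 86, 122 and 92 reads in C4-2B alone and 4, 0 and 0 in the co-culture. For IFI44L 12.7 co-culture reads were expected at an equal level, and the ratio of the co-culture to C4-2B alone over pooled reads was 0.316 (exact 95% interval 0.0854 to 0.816, counting error only, all 4 reads from 1 library). IFI35, a leucine zipper protein, had 405, 472 and 432 reads in C4-2B alone and 25, 5 and 14 in the co-culture. Its co-culture libraries lay on both sides of the C4-2B alone libraries, with a log2 difference of -0.33 (SE 0.38, limma voom, adjusted p = 0.615).

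The OAS enzymes make the second messenger 2-5A from ATP, and OAS1, OAS2 and OAS3 lie together on chromosome 12 between 112906783 and 113011723. OAS1 had 686 reads over C4-2B alone and 21 over the co-culture, of which co-culture B held 10, and the log2 difference of -0.32 (SE 0.43) became 0.15 without co-culture A and -0.90 without co-culture B. OAS2 had 129 reads over C4-2B alone and 8 over the co-culture, 4 each in A and C, where 5.45 were expected. OASL, a relative without the enzyme activity, had 100 reads over C4-2B alone and 2 over the co-culture, a ratio of 0.473 (exact 95% interval 0.0566 to 1.76, counting error only). OAS3 was given by its Xenome mean of 2034. IFI27, a small mitochondrial protein, had 311 reads over C4-2B alone and 8 over the co-culture, 7 of them in co-culture A, where 13.1 were expected. XAF1, a promoter of cell death, had 4, 1 and 7 reads in C4-2B alone and none in the co-culture libraries, where 0.507 reads were expected, so a difference was not detectable at this depth.

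**Figure D3:**
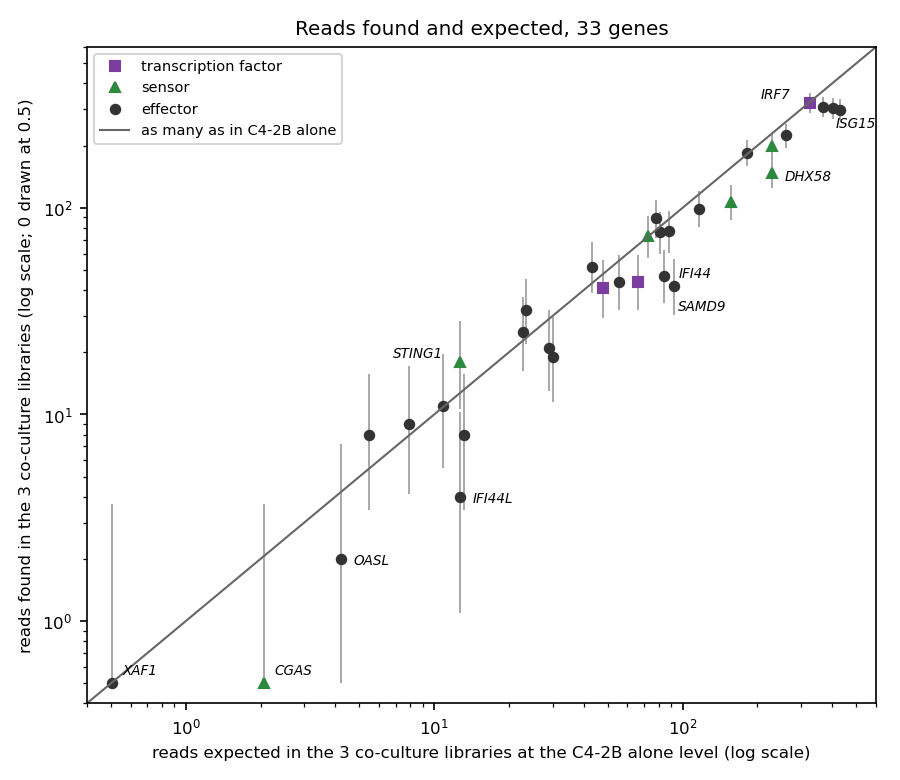
Reads found in the 3 co-culture libraries together (y axis, log scale, 0 drawn at 0.5) against the reads expected there at the C4-2B alone level (x axis, log scale), for the 33 genes with solved reads. Bars are exact 95% Poisson intervals of the reads found, which cover counting error only, and the line marks equal levels. XAF1, CGAS and OASL have fewer than 5 expected reads, while DHX58, IFI44 and SAMD9 lie below the line.

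Summed over the 33 genes, the normalised reads were 4828, 5431 and 5615 in C4-2B alone A, B and C and 4161, 4317 and 4914 in co-culture A, B and C. The means were 5291 ± 412 and 4464 ± 397 (n = 3 each), and the groups overlapped. Such a sum is set by the abundant members, IFITM2, PARP14, ISG15 and IRF7 above all. Within a bulk library, fewer reads from fewer expressing cells and less RNA per cell cannot be told apart, and the interferon-stimulated genes of the MC3T3-E1 cells are not part of this table.

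The 3 pipelines gave close means for most members. XenofilteR's mean was 0.917 to 1.02 times the Xenome mean over the 43 genes. Of the 16 members whose reads were solved from each pipeline by itself, 14 had the same number of reads over the co-culture libraries in both, and the largest gap was 1 read. Kallisto, which assigns reads to transcripts of both species at once, gave a median of 1.01 times the Xenome mean over the 40 members with a Xenome mean of at least 10. Among these, 4 of 40 (10%) had a Kallisto mean over 2 times the Xenome mean, beside 8.82% of 13243 protein-coding genes. They were IFI44L (10.96 with Xenome and 41.3 with Kallisto), IFIT1 (34.9 and 105), OAS2 (11.8 and 32.9) and IRF9 (61.2 and 148). The 3 members of lower mean all had ratios over 2: XAF1 stood at 0.384 with Xenome and 153 with Kallisto, CGAS at 1.51 and 47.1, and OASL at 3.96 and 10.98. At the other end, IFI27 was at 0.666 and ISG20 at 0.727 times the Xenome mean. In GENCODE release 44, IFI44L, IFIT1, OAS2 and OASL share no exon bases with another gene. IRF9 shares 27.2% (23.9% on the same strand), while CGAS shares 4.31% and XAF1 38.3%, both with a gene on the opposite strand. The part of this overlap in the gaps was not tested. Kallisto's means could not be solved into reads, so the group in which its extra reads lie is not known here.

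**Figure D4:**
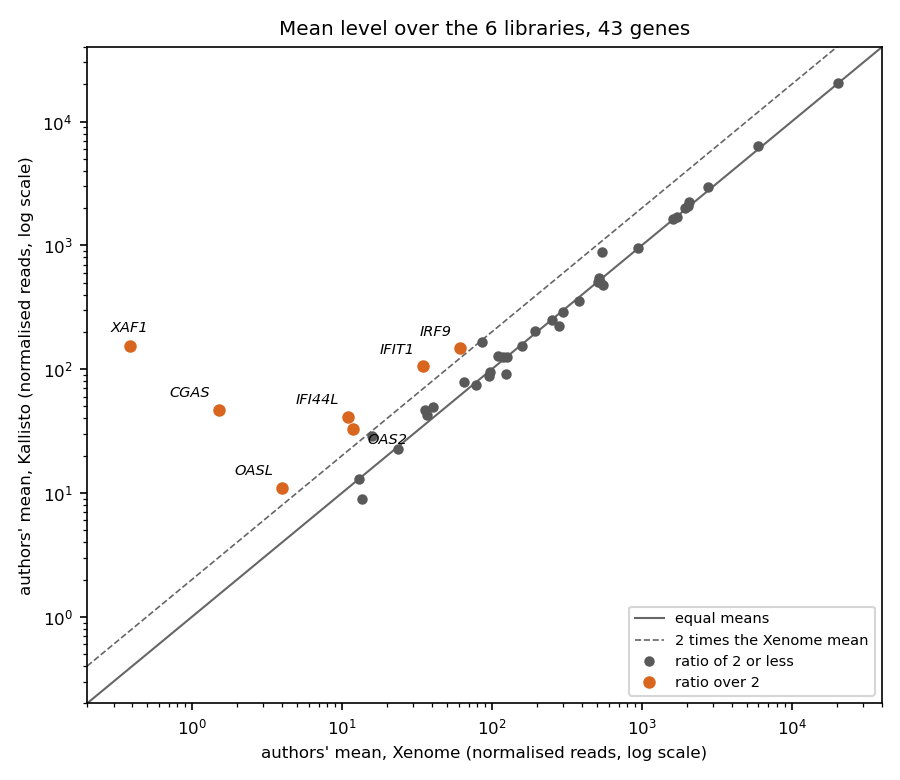
The authors' mean over the 6 libraries for each of the 43 genes with Kallisto (y axis, log scale) against Xenome (x axis, log scale), in normalised reads. The solid line marks equal means and the dashed line 2 times the Xenome mean, and the 7 genes above it are coloured and named. XAF1 (0.384 against 153) and CGAS (1.51 against 47.1) lie farthest from the line.

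Of the 10 members without solved reads, ADAR, the enzyme that edits double-stranded RNA, had the highest Xenome mean at 20300, followed by TRIM25, the ligase that activates RIG-I, at 5956, EIF2AK2 (PKR), the kinase that stops translation on double-stranded RNA, at 2774, and IRF3 at 2054. OAS3 (2034), STAT2 (1936), IFITM3 (1708), PARP9 (1620), BST2, the tether of budding viruses (946), and USP18 (545) followed. For these 10 genes XenofilteR gave 0.973 to 1.01 times and Kallisto 0.984 to 1.61 times the Xenome mean, with USP18 at the upper end for Kallisto.

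A list of 39 further genes of the pathway, from the receptors to the inhibitors, was fitted in the same way. Of these, 34 had a Xenome mean, 12 had solved reads and 10 could be fitted, with 1 called up and 0 called down, beside the 4.22% and 3.86% of all genes called in the 2 fits. The call was SOCS3, a feedback inhibitor of the receptor kinases, with 19, 20 and 11 reads in C4-2B alone and 5, 2 and 1 in the co-culture (log2 difference 2.20, SE 0.50, limma voom, adjusted p = 0.0246). SOCS3 has 8 co-culture reads, falls under the filter of 10, and its mean was 7.33 with Xenome and 5.80 with XenofilteR. Among the 7 with at least 10 co-culture reads none was called, beside 2.43% of all genes in the wider fit. They included the receptor chains IFNAR2 (log2 difference 0.20, SE 0.27) and IL10RB (-0.61, SE 0.39), the factors IRF2 (-0.11, SE 0.17) and IRF5 (-0.65, SE 0.20, limma voom, adjusted p = 0.0741), the kinase IKBKE (-0.09, SE 0.29) and the endosomal RNA sensor TLR3 (0.20, SE 0.36). These values are from the filter of 10 reads over the 6 libraries. With the filter of 10 co-culture reads, IRF5 passed the adjusted p (-0.65, limma voom, adjusted p = 0.0321) but not the fold minimum. Of the interferons themselves, IFNL1 had 6, 8 and 17 reads in C4-2B alone and 2, 0 and 0 in the co-culture, and IFNL2 had 4 reads in all, none in the co-culture. The receptor chain IFNAR1 (Xenome mean 5626) and the kinases TYK2 (3177), JAK2 (860) and JAK1 (268) had no solved reads.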

How the data were processed

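The authors separated human from mouse reads with Xenome or with XenofilteR after HISAT2 alignment to GRCh38 and GRCm38, counted them per gene with featureCounts, or quantified them with Kallisto on the joined transcriptomes, and compared the groups with DESeq2. Whether counting used strand is not given in the sources used here. The deposited table of the whole series gives per pipeline the mean of the normalised reads over the 6 libraries, and the authors' comparison (log2 fold change, its standard error, statistic, p-value and adjusted p-value). The comparison was not used or compared with here, except that the sign of the deposited Xenome log2 fold change placed the solved libraries. With the 3 shallow libraries as the co-culture, the sign of the solved reads matched in 1023 of 1023 genes, and 89.9% of genes matched for the next division. Of 41734 rows, 21 repeated a gene and were dropped.

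Each deposited mean, given to 15 significant digits, is a sum of whole reads times a constant per library. Size factors and reads were solved from it by lattice reduction. Means below 100 were solved from Xenome alone (26492 genes), and means up to 600 from Xenome and XenofilteR together (3220 of 3927 genes, weight of the solution at least 0.995, favouring similar reads in both pipelines). Of 1075 genes with means of 50 to 100 solved both ways, 1075 gave the same reads. Kallisto's means had no such solution. No solved library could be tied to a replicate number, and 0 per-sample columns exist.

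Reads were compared with limma 3.58.1 (voom, R 4.3.3), with library sizes set from the size factors and at least 10 reads over the 6 libraries, as designed. Under this filter the fit called unchanged genes with few co-culture reads in simulated data, so differences are quoted only for members with at least 10 co-culture reads, and other members are given in reads. Because few human reads were left in the co-culture libraries, they set the precision. Intervals of pooled reads are exact (Clopper-Pearson) and, like the floor of 3 reads, cover counting error only. Labels do not say that replicates were separate cultures, so p-values measure the spread between these libraries. The lattice step ran in numba 0.67.0, exact intervals in scipy 1.17.1, and tables and plots in pandas 2.3.3 and matplotlib 3.10.9 under python 3.11.15. The members, the lists and the named genes (members passing the test, then those with the most co-culture reads up to 20, with the rest given after them) were chosen with earlier results of these data known. Alternatives were XenofilteR reads, other filters, library totals, limma trend with pseudocounts of 0.25, 1 and 4, no fold minimum and leaving out each library, and, chosen after seeing the data, the wider gene set with the co-culture filter, an added count scaled to depth, and a filter on expected co-culture reads.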

Additional observations from a re-analysis of the deposited data

How the results depend on the processing

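The number of members called was 0 in both fits under most alternatives, with these exceptions. It was 1 (SAMD9) without a filter on low counts, 1 (CGAS) with limma trend at pseudocount 1 and 2 (CGAS and XAF1) at pseudocount 0.25, in either fit, and CGAS and XAF1 have 0 co-culture reads. By the adjusted p with no fold minimum, the wider fit also called DHX58 without a filter on low counts (2 members in all), DDX58, DHX58 and IFI44 with limma trend at pseudocounts 1 and 0.25 (4 and 5 in all), and CGAS, DHX58 and IFI44 at pseudocount 4 (3 in all), where the Xenome fit called CGAS (1). These are counts of 33 members in the wider fit and 18 in the Xenome fit. By the same rule, the wider fit called 10495 of 29576 genes without a filter. With limma trend it called 3680, 4215 and 2377 of 21529 genes at pseudocounts 1, 0.25 and 4. The Xenome fit called 2693 of 18445 genes at pseudocount 4. The members' median stayed below 0 under each alternative, from -0.46 to -0.10 in the Xenome fit and from -0.37 to -0.13 in the wider fit, but the median over all genes moved from -1.29 to 1.16 and from -0.91 to 0.85. With limma trend at pseudocounts 1 and 0.25 the members' medians of -0.39 and -0.46 in the Xenome fit lay above those over all genes, -0.68 and -1.29. Counts over all genes moved far more. In the Xenome fit, against 778 genes called, 10441 were called without a filter, 180 with at least 10 co-culture reads, 2423, 3848 and 492 with limma trend at pseudocounts of 1, 0.25 and 4, and 87 with both an added count scaled to depth and the filter of 10 co-culture reads (the filter by itself gave the 180). In the wider fit, against 831, the counts under the same settings, in that order, were 10278, 202, 2465, 3911, 504 and 123. Tested genes in the Xenome fit numbered 26492 without a filter, 5225 with the co-culture filter and 18445 with limma trend. In the wider fit they numbered 29576, 8308 and 21529. Limma trend turned the balance of calls, from 732 up and 46 down in the Xenome fit to 138 up and 2285 down at pseudocount 1 and 130 up and 362 down at pseudocount 4. Limma trend changes both the added count and the weights, and the part of each was not tested. Leaving out 1 library gave 114 to 425 called genes in the Xenome fit and 155 to 491 in the wider fit, and 0 members called in both.

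Of 384 values of the 26 members under alternatives, 373 moved by no more than the standard error. Without a single library, IRF7 ranged from -0.22 to 0.20, ISG15 from -0.36 to 0.078, ISG20 from -0.21 to 0.41, OAS1 from -0.90 to 0.15 and SP110 from -0.35 to 0.13, each above 0 without co-culture A. Likewise IRF1 was -0.11, IFIH1 -0.57 and HERC6 -0.34 without co-culture A, IFITM1 was 0.73 without co-culture C, and SAMD9 ranged from -1.95 to -0.86. Over all alternatives 10 of the 26 members had a value of the other sign under at least 1, IFITM1 among them. The cause was not tested. No paired analysis was possible because the solved libraries carry no replicate numbers. Depth limits the comparison most for CGAS, XAF1 and OASL, with under 5 expected co-culture reads.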
